A study of Mus musculus with 4 samples.

Results

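The genes described here are 10 targets of the transcription factor p53 that feed back on p53, arrest the cell cycle or copy damaged DNA: Mdm2, Ccng1, Trp53inp1, Phlda3, Zmat3, Cdkn1a, Gadd45a, Plk2, Plk3 and Polk. They were taken by gene name from a joined table of 4295 genes, and all 10 were found there. The cells were CT26, a transplantable colon carcinoma line from BALB/c mice whose genotype the labels give as WT, kept in culture and sampled as bulk polyA RNA. The riluzole libraries came from CT26 cells given 25 µM riluzole for 24 h (2 libraries); riluzole is a motor neuron disease drug known for reducing glutamate release. The control libraries came from CT26 cells given the solvent DMSO for the same time (2 libraries). All 4 libraries come from a single line, and the labels name no other genotype or cell type. Whether the replicates were grown separately is not in the labels, so the p-values reflect the spread among these 4 libraries alone, which may be technical. The title of the series places the comparison in work on cGAS/STING signalling and anti-PD-1 therapy.

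The table holds only genes with p below 0.05 in the authors' own comparison of riluzole with control, 4295 (34.1%) of an implied 12601 tested. A gene outside it was not shown to be unchanged, and a gene inside it had already differed in this very contrast. Listed genes held 9191717 to 12989475 counts per library. Epithelial and mesenchymal markers were represented by Krt18, with 30.2 and 28.2 FPKM in the riluzole libraries against 21.2 and 20.5 FPKM in the control libraries, and by Vim, with 622 and 637 FPKM against 408 and 386 FPKM (FPKM, counted reads scaled by gene length and by library total). Krt8 was listed below 1 FPKM in every library, and the epithelial markers Krt19, Epcam and Cdh1 and the mesenchymal markers Fn1 and Cdh2 were outside the table. Of 4 markers of leukocytes and endothelium, Cd68 alone was listed, with 14.8 and 14.7 FPKM in the riluzole libraries against 8.41 and 9.94 FPKM in the control libraries, and its part in the results below was not tested. In bulk RNA, a change in the share of cells that express a gene and a change in RNA per cell cannot be told apart.

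p53 is held low in unstressed cells by the ubiquitin ligase MDM2, which marks it for destruction and is itself a p53 target, so that p53 activity raises its own brake. When DNA damage or other stress frees p53, it binds DNA at paired decamers and switches on genes that stop the cell cycle, above all the cyclin-dependent kinase inhibitor p21 encoded by Cdkn1a, along with genes of repair and of cell death. Several targets answer to other regulators too: Gadd45a is also induced by the stress factor ATF4, and polo-like kinase genes Plk2 and Plk3 by growth factors and other stresses.

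Promoter sequences were available for 8 of the 10 genes, as RefSeq windows on GRCm38.p6 that run from 250 bases before to 50 bases after a transcript start. They are shown because binding at such decamers is what these genes are known to share, and the search did not use their expression. The p53 consensus decamer, which reads the same on both strands, was present without mismatch in 5 of the 10 windows of these genes. Of all 32851 promoter windows, 8.36% held it. The 5 windows belonged to 5 of the 8 genes (Cdkn1a, Ccng1, Mdm2, Gadd45a and Polk), where 9.55% of all genes with a window held a decamer. A 20-letter site, made of a pair of decamers with no spacer and at most 1 mismatch, was present in Cdkn1a and Ccng1 and in 0.0883% of all windows (29 windows). The windows of Phlda3, Plk2 and Plk3 held neither. The lines below run 5′ to 3′, and capitals mark the decamers and the 20-letter sites.
Cdkn1a, chr17:29090891-29090962, + strand: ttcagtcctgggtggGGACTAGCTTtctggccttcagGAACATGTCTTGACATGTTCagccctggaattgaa
Ccng1, chr11:40755447-40755496, - strand: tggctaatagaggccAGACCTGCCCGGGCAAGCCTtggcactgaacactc
Mdm2, chr10:117710920-117710959, - strand: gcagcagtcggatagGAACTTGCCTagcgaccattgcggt
Gadd45a, chr6:67037423-67037462, - strand: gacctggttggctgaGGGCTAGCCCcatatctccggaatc
Polk, chr13:96519394-96519433, - strand: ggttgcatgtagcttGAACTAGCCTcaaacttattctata
The Cdkn1a site begins 51 bases before the more upstream of the gene's RefSeq starts and 2841 bases before the other start, and no decamer was found in the window of that other start. The Ccng1 site begins 195 bases before the start. A match describes these letters only and does not show that p53 was bound, and a window with no match says nothing of sites elsewhere in the gene.

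Across the 10 genes, 7 were higher and 3 lower with riluzole in edgeR's quasi-likelihood test at a Benjamini-Hochberg adjusted p below 0.05, against 41.3% of listed genes called higher and 58.2% called lower. The riluzole and control libraries did not overlap for any of the 10; both riluzole libraries were above both controls for 41.4% of listed genes and below them for 58.5%. Since listing already required a low p in the same contrast, these counts carry no further weight. The median log2 fold change of the 10 was 0.34, beside -0.19 over all listed genes. The individual changes ran from -0.61 for Gadd45a to 0.94 for Trp53inp1, and all 10 were smaller than 2-fold. At an adjusted p below 0.05 in the authors' deposited table, 6 were higher and 3 lower, and Zmat3 was not called. Of listed genes, 28.3% were called higher and 44.7% lower at that threshold, and of all tested genes 9.63% and 15.2%. This count also follows the selection by p and carries no further weight.

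**Figure D1:**
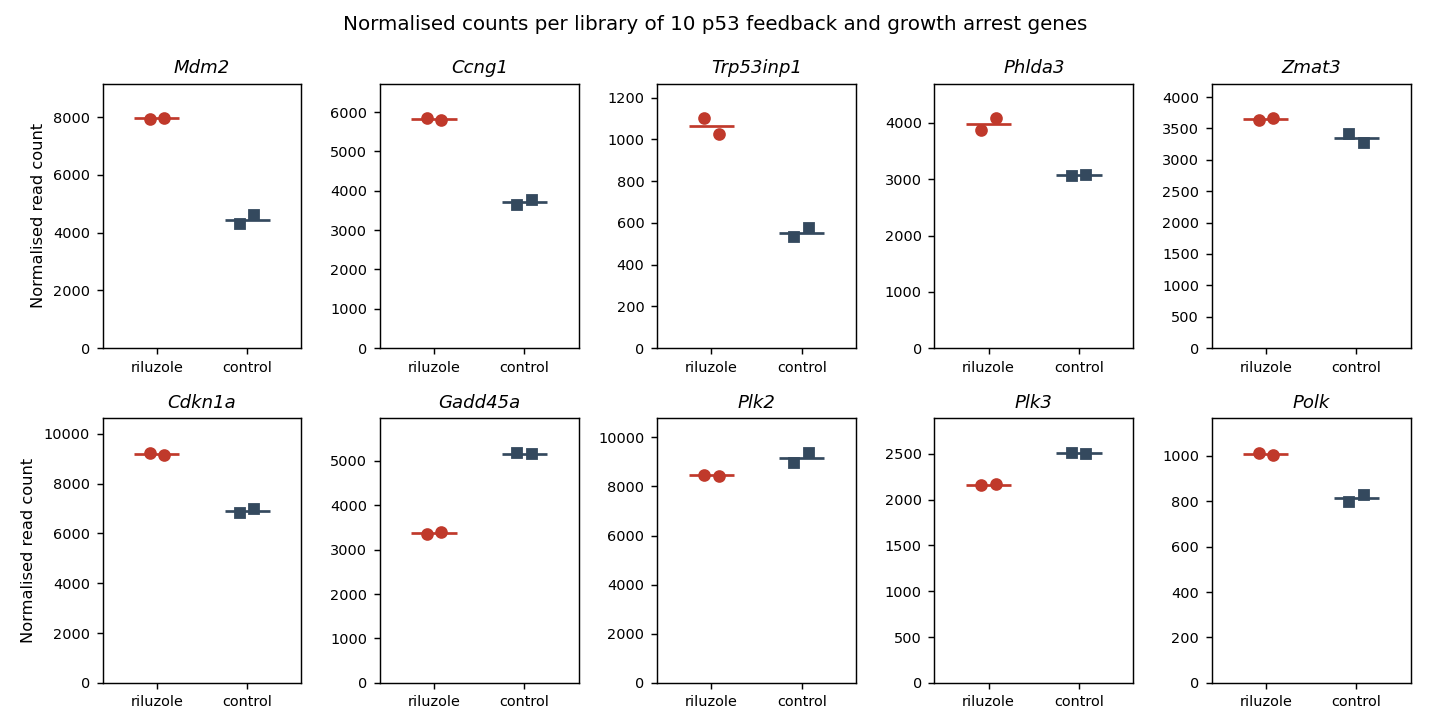
Normalised read count (y axis, from 0) in each of the 2 riluzole and 2 control libraries for the 10 genes; points are libraries and the short lines are group means. The widest relative separations are those of Trp53inp1, Mdm2 and Ccng1 (higher with riluzole) and Gadd45a (lower), while Plk2 and Zmat3 lie closest to their controls.

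The largest rises were those of Trp53inp1, Mdm2 and Ccng1, whose products act on p53 itself. Mdm2 (chromosome 10, 117524780 to 117546663, mm39) had 7946 and 7964 normalised counts in the riluzole libraries, against 4311.4 and 4595.5 in the control libraries. The riluzole libraries were nearly equal to each other and far above both controls: the gap between the groups was 11.8 times the largest gap between replicates. This was a 1.79-fold rise, with a log2 fold change of 0.84 ± 0.04 (SE) and an adjusted p of 8.85e-16 in edgeR's quasi-likelihood test. By p-value, Mdm2 stood at rank 14 of the 4295 genes in the authors' deposited table, the highest rank among the 10.

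Ccng1 (chromosome 11, 40639379 to 40646138), the gene of cyclin G1, which brings a phosphatase to MDM2 and so favours p53 breakdown, had 5847 and 5801 normalised counts with riluzole, against 3642 and 3776 in the controls. It rose 1.57-fold (log2 fold change 0.65 ± 0.04, SE; edgeR quasi-likelihood adjusted p = 2.25e-13), and the gap between groups was 15.2 times the largest replicate gap. The ligase gene and the cyclin G1 gene, both of which limit p53, were thus both higher, and Ccng1 carries 1 of the 20-letter sites shown above.

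Trp53inp1 (chromosome 4, 11156431 to 11174379) encodes a stress-induced nuclear protein that promotes p53 phosphorylation. It had 1102 and 1028 normalised counts in the riluzole libraries, against 532.2 and 573.5 in the control libraries, a 1.93-fold rise (log2 fold change 0.94 ± 0.07, SE; edgeR quasi-likelihood adjusted p = 1.25e-11). It showed the largest fold of the 10 genes and also the noisiest replicates, which differed by 6.97% of their mean with riluzole and by 7.47% in the controls. Among the 1780 genes listed as higher, its fold ranked 313 and that of Mdm2 361.

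Phlda3 (chromosome 1, 135693857 to 135696874) encodes a pleckstrin homology protein that keeps the survival kinase AKT off the membrane. It had 3880 and 4086 normalised counts with riluzole, against 3063 and 3077 in the controls, a 1.30-fold rise (log2 fold change 0.38 ± 0.04, SE; edgeR quasi-likelihood adjusted p = 4.46e-08). Here the spread lay in the riluzole libraries, which differed by 5.16% of their mean, against 0.464% between the controls.

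Zmat3 (chromosome 3, 32388941 to 32420163), the gene of an RNA-binding zinc finger protein, was the weakest rise. It had 3639 and 3664 normalised counts with riluzole, against 3409 and 3273 in the controls, a 1.09-fold difference whose gap between groups was 1.68 times the largest replicate gap. The log2 fold change of 0.13 ± 0.04 (SE) passed in edgeR's quasi-likelihood test (adjusted p = 0.0170) and did not in the authors' deposited table (adjusted p = 0.101). In edgeR's quasi-likelihood test the call was also lost without control replicate 2 (adjusted p = 0.237), without riluzole replicate 1 (0.0635) or without riluzole replicate 2 (0.0856).

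The principal arrest genes moved in opposite directions. Cdkn1a (chromosome 17, 29309950 to 29319701), whose product p21 blocks the kinases that start DNA replication, had 9234 and 9143 normalised counts with riluzole, against 6804.5 and 6989.5 in the controls. Both riluzole libraries exceeded both controls by a gap 11.6 times the largest replicate gap. The rise was 1.33-fold (log2 fold change 0.41 ± 0.04, SE; edgeR quasi-likelihood adjusted p = 1.37e-09). Its promoter window holds a 20-letter site and a further decamer, both shown above.

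Gadd45a (chromosome 6, 67012080 to 67014441), which encodes a small stress protein that binds p21, PCNA and the mitotic kinase CDK1, had 3358 and 3394 normalised counts with riluzole, against 5183 and 5147 in the controls. Both groups were tight, and the gap between them was 48.8 times the largest replicate gap, the widest of the 10. Riluzole libraries held 65.4% of the control level (log2 fold change -0.61 ± 0.04, SE; edgeR quasi-likelihood adjusted p = 8.21e-13). Gadd45a has a decamer 40 bases before its start and fell, whereas the other members of the 10 with decamers in their windows rose. Among listed genes with a window, 10.1% of those listed as higher and 7.31% of those listed as lower held a decamer. Whether decamer and direction are tied was not tested.

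The polo-like kinase genes were lower by small amounts. Plk3 (chromosome 4, 116985852 to 116991160), which encodes a kinase of the stress and damage response, had 2156 and 2171 normalised counts with riluzole, against 2511 and 2498 in the controls. Plk2 (chromosome 13, 110531580 to 110537378), which encodes a kinase of centriole duplication and synaptic remodelling, had 8469 and 8444 normalised counts with riluzole, against 8938 and 9367 in the controls. For Plk3 the replicates nearly coincided, whereas for Plk2 the gap between groups was about as wide as that between the controls (1.09 times). The log2 fold changes were -0.21 ± 0.05 for Plk3 and -0.11 ± 0.04 for Plk2 (SE; edgeR quasi-likelihood adjusted p = 0.000458 and 0.0253). Neither kinase was called with TMM or DESeq2 size factors computed on the listed genes, and under DESeq2 scaling Plk2 changed sign (log2 fold change 0.05). In edgeR's quasi-likelihood test Plk2 was also not called without control replicate 2 (adjusted p = 0.412), without riluzole replicate 1 (0.0971) or without riluzole replicate 2 (0.110).

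Polk (chromosome 13, 96617198 to 96679087) encodes DNA polymerase kappa, which copies past bulky lesions and is a p53 target in the mouse. It had 1013 and 1003 normalised counts with riluzole, against 798 and 829 in the controls, a 1.24-fold rise (log2 fold change 0.31 ± 0.06, SE; edgeR quasi-likelihood adjusted p = 0.000296). The riluzole libraries stood clear of the controls by 5.53 times the largest replicate gap.

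The calls of Plk2, Plk3 and Zmat3 depended on how libraries were scaled. Among the 4 scalings, Plk2 and Plk3 lost theirs only with TMM and DESeq2 factors, both computed on genes chosen for differing. With the authors' size factors the median of all listed genes was -0.19. TMM factors over the listed genes moved every value up by about 0.10 and DESeq2 size factors by 0.17, while library totals implied by FPKM moved them down by 0.03. Under all 4 scalings, Mdm2, Ccng1, Trp53inp1, Phlda3, Cdkn1a and Polk kept a positive log2 fold change and Gadd45a a negative one, each with an edgeR quasi-likelihood adjusted p below 0.05. Gadd45a lay at -0.51 with TMM and at -0.45 under DESeq2 scaling on the listed genes. Zmat3 lost its call with library totals implied by FPKM (log2 fold change 0.10, edgeR quasi-likelihood adjusted p = 0.0655).

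**Figure D2:**
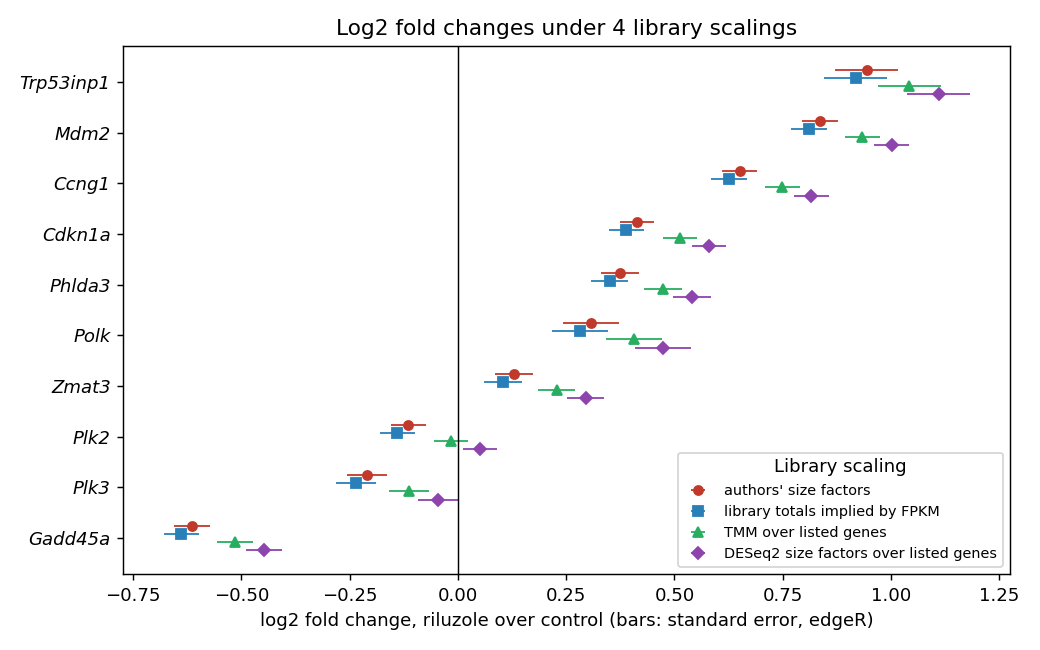
Log2 fold change, riluzole over control (x axis), of the 10 genes under 4 library scalings, with the standard error of edgeR's fit as bars and 2 libraries per group. Gadd45a stays below 0 under each scaling, while Plk2 lies at 0.05 under DESeq2 scaling on the listed genes and Plk3 at -0.05.

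Ratios between members within a library do not depend on the scaling. The raw count of Mdm2 was 0.861 and 0.871 of that of Cdkn1a in the riluzole libraries, against 0.634 and 0.657 in the control libraries. The ratio of Gadd45a to Cdkn1a was 0.364 and 0.371 with riluzole, against 0.762 and 0.736 in the controls. With riluzole the mean ratio was 0.491 of that in the controls. Mdm2 was counted 2.37 and 2.35 times as often as Gadd45a with riluzole, against 0.832 and 0.893 times in the controls, so Mdm2 was the more counted gene with riluzole and Gadd45a in the controls. Plk2 had 0.917 and 0.924 counts per count of Cdkn1a with riluzole, against 1.31 and 1.34 in the controls. Trp53inp1 per Zmat3, the strongest and the weakest rise, was 0.303 and 0.281 with riluzole, against 0.156 and 0.175 in the controls. The groups did not overlap for any of the 7 ratios computed. All 10 genes were listed for differing in this same contrast, so this count carries no further weight. The share over other pairs of listed genes was not computed. With 2 libraries against 2, an exact two-sided permutation test cannot give a p below 0.333. A ratio within a library shows unequal change, not which gene moved.

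**Figure D3:**
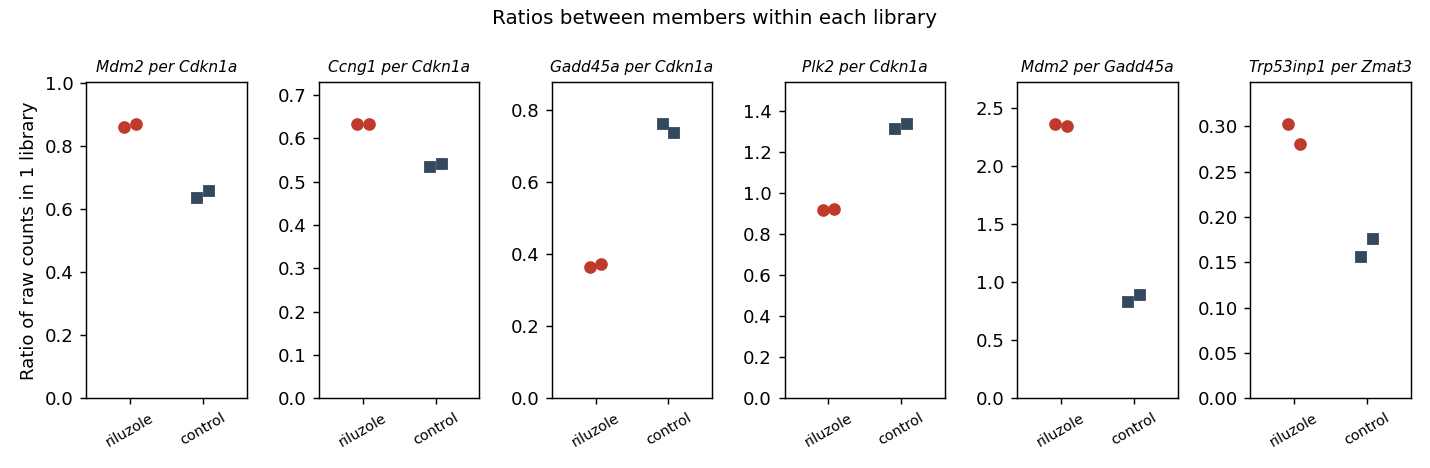
Ratio of raw counts of 2 genes in the same library (y axis, from 0), for the 2 riluzole and 2 control libraries; points are libraries, and 6 of the 7 ratios are drawn. Gadd45a per Cdkn1a sits at 0.364 and 0.371 with riluzole against 0.762 and 0.736 in the controls, and Mdm2 per Gadd45a is above 2 with riluzole and below 1 in the controls.

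Levels per gene length spanned a wide range. With riluzole the order by mean FPKM was Cdkn1a (147 ± 1.19, SD, n = 2), Phlda3 (145 ± 5.13), Gadd45a (109 ± 0.697), Plk2 (107 ± 0.340), Ccng1 (94.1 ± 0.624), Mdm2 (88.8 ± 0.0432), Plk3 (48.5 ± 0.186), Zmat3 (18.1 ± 0.0678), Polk (10.3 ± 0.0876) and Trp53inp1 (9.34 ± 0.470). In the controls the mean FPKM placed Gadd45a first (169 ± 0.476, SD, n = 2), followed by Plk2 (118 ± 4.14), Phlda3 (114 ± 0.605), Cdkn1a (112 ± 2.36), Ccng1 (61.0 ± 1.68), Plk3 (57.1 ± 0.0825), Mdm2 (50.6 ± 2.39), Zmat3 (16.9 ± 0.453), Polk (8.46 ± 0.248) and Trp53inp1 (4.93 ± 0.271). Cdkn1a and Phlda3 could not be ordered in either group, since their libraries overlapped; every other pair of neighbours was separate. Gadd45a, the most abundant of the 10 per length in the controls, came below Cdkn1a and Phlda3 with riluzole, and Mdm2 came above Plk3. Cdkn1a and Gadd45a were both abundant among listed genes, at rank 231 and rank 212 of 4295 by mean FPKM over all libraries, while Trp53inp1 was at rank 3037.

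**Figure D4:**
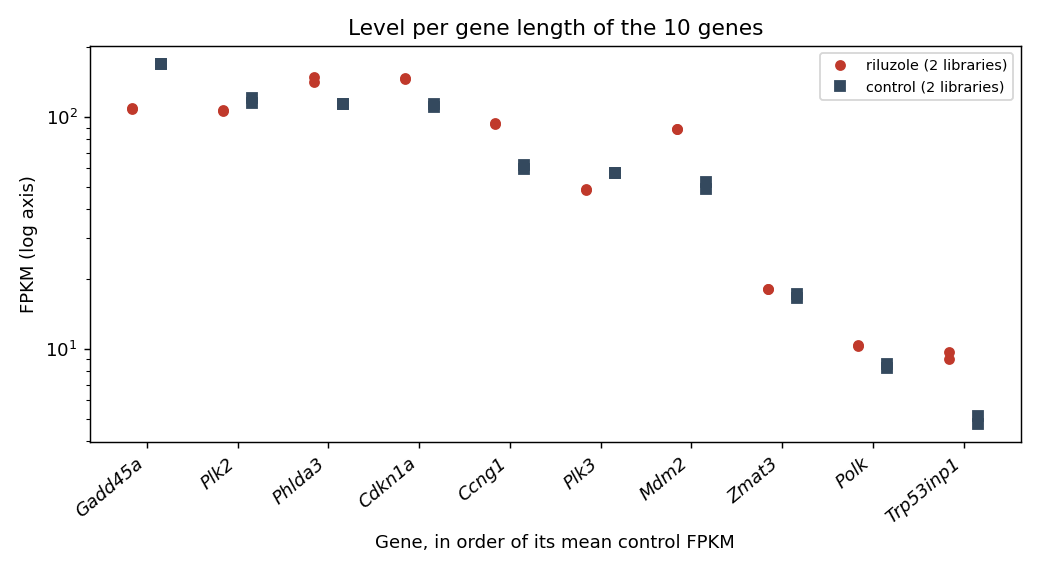
FPKM on a log axis for the 10 genes in the order of their mean control FPKM; each point is 1 of the 2 riluzole or 2 control libraries. Gadd45a leads in the controls at 169 FPKM and stands at 109 FPKM with riluzole, and Trp53inp1 is lowest in both groups.

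Further p53 targets came from a list of 34 genes outside the cell death genes. Of these, 19 were outside the table and 15 were listed, where 34.1% of all tested genes were listed. Of the 15, 13 were called higher and 2 lower, where 41.3% of all listed genes were called higher and 58.2% lower. Their median log2 fold change was 0.49, beside -0.19 over all listed genes. Dglucy, which encodes a D-glutamate cyclase, had 1502 and 1425 normalised counts with riluzole, against 566 and 552 in the controls, a 2.62-fold rise (edgeR quasi-likelihood adjusted p = 1.81e-16). The lysosomal protease gene Ctsd rose 1.75-fold, the epoxide hydrolase gene Ephx1 1.72-fold and the adenylate kinase gene Ak1 1.69-fold. Pcna, the sliding clamp gene of replication, ran the other way (log2 fold change -0.43 ± 0.05, SE), as did Thbs1, the thrombospondin gene (-0.64 ± 0.12), whose call was lost in DESeq2 (adjusted p = 0.0910) and whose log2 fold change was -0.38 without control replicate 1. At the same threshold the authors' deposited table has 10 higher and 2 lower. The signs were 13 and 2 under each of the 4 scalings, whose shifts were too small to change any of them. Exons of Ctsd and Ephx1 overlap another gene on the same strand, those of Dglucy and Thbs1 one on the other strand, and Pcna has a near-identical pseudogene, so their values are less certain.

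Of 17 cell death targets of p53, 9 were outside the table, and all 8 that were listed were called higher (5 in the authors' deposited table, and 5 without control replicate 1). Of all tested genes 34.1% were listed, and of listed genes 41.3% were called higher. The median log2 fold change of the 8 was 0.37, beside -0.19 over all listed genes. Bbc3 and Bax, which encode the mitochondrial death proteins PUMA and BAX, rose 1.39-fold and 1.20-fold, Pidd1, a death domain gene, 1.67-fold, and the death receptor gene Tnfrsf10b 1.30-fold. The log2 fold changes of the 8 genes ran from 0.22 to 0.73, those of the 7 higher members from 0.13 to 0.94. Exons of Bax overlap another gene on the same strand and Tnfrsf10b has a near-identical copy. The split of 8 to 0 held in sign under each of the 4 scalings, whose shifts were too small to change any of these signs.

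Of 29 genes that regulate p53, 15 were listed, where 34.1% of all tested genes were listed. Of the 15, 4 were called higher and 11 lower (2 and 8 in the authors' deposited table). The median log2 fold change was -0.24, near the -0.19 over all listed genes, of which 41.3% were called higher and 58.2% lower. The difference from the p53 targets was not tested. Trp53 itself, Mdm4, the partner of MDM2, and Ppm1d, a phosphatase of the same feedback, were outside the table. Daxx, a histone chaperone gene, had 1193 and 1214 normalised counts with riluzole against 743 and 875 in the controls, a 1.49-fold rise. Rps27l, a ribosomal protein gene that is also a p53 target, rose 1.23-fold. Hipk2, a p53 kinase gene, had a log2 fold change of 0.34 that missed the threshold in the authors' deposited table (adjusted p = 0.0603). Hipk2 shares a near-identical stretch with a transcript of another gene, Ubn2. The checkpoint kinase gene Chek2 fell to 0.645 of the control level and Ppp1r13l, which encodes the p53 inhibitor iASPP, to 0.759. The number called lower depended on scaling, being 6 with TMM and 3 with the DESeq2 factors. Of all listed genes, 38.6% and 24.3% were called lower with these factors.

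Of 20 close relatives of the 10 genes, 15 were outside the table, Cdkn1b, Gadd45g and Polh among them. Of all tested genes, 34.1% were listed. Of the 5 relatives listed, 2 were called higher and 3 lower (1 and 3 in the authors' deposited table). Among all listed genes, 41.3% were called higher and 58.2% lower. Ccng2, the relative of Ccng1, rose 1.47-fold, with 481 and 541 normalised counts with riluzole against 353 and 342 in the controls. Gadd45b, like Gadd45a, was lower (317 and 329 normalised counts with riluzole against 413 and 438 in the controls; log2 fold change -0.40 ± 0.10, SE), a call lost under DESeq2 scaling on the listed genes (edgeR quasi-likelihood adjusted p = 0.0935). Plk1 and Plk4, the mitotic and the centriole kinase genes, fell to 0.684 and 0.653 of the control level, further than Plk2 and Plk3. Phlda1, the relative of Phlda3, had a log2 fold change of 0.18 that missed the threshold in the authors' deposited table (adjusted p = 0.0726).

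Among 24 genes of the G1/S machinery on which p21 acts, 13 were listed, 4 called higher and 9 lower (4 and 8 in the authors' deposited table). Of all tested genes, 34.1% were listed. Of all listed genes, 41.3% were called higher and 58.2% lower (28.3% and 44.7% in the authors' deposited table). Pcna, described above, was among the 13 and was called lower. The median log2 fold change of the 13 was -0.41, beside -0.19 over all listed genes. Cks1b, a subunit of the kinases that p21 blocks, fell to 0.615 of the control level, the pocket protein gene Rbl1 to 0.614 and E2f4, which encodes a repressor E2F, to 0.753. The cyclin D genes Ccnd1 and Ccnd3 rose 1.27-fold and 1.29-fold, and Rbl2, the other pocket protein gene listed, had a log2 fold change of 0.49 (edgeR quasi-likelihood adjusted p = 0.000212). Of 12 translesion synthesis genes beside Polk, 3 were listed, Pcna as above, Rad18 (log2 fold change -0.23) and Shprh (0.30); the adjusted p in the authors' deposited table was 0.127 for Rad18 and 0.119 for Shprh. In edgeR's quasi-likelihood test Rad18 was not called without riluzole replicate 1 (adjusted p = 0.169), nor Shprh without riluzole replicate 2 (0.0762) or control replicate 2 (0.151). The signs within both lists were the same under all 4 scalings, whose shifts were too small to change any of them. Exons of Ccnd1, Ccnd3, Rbl2, Shprh, Plk1 and Phlda1 overlap those of a gene on the other strand, and Ccnd3 has a near-identical pseudogene.

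Of 12 genes of the ATF4 stress response, through which Gadd45a can also be induced, 8 were listed, where 34.1% of all tested genes were listed. All 8 were called lower under each of the 4 scalings. Of all listed genes, 58.2% were called lower with the authors' size factors and 58.5% with library totals implied by FPKM. With TMM and DESeq2 factors over the listed genes, the share was 38.6% and 24.3%. Atf4 itself had 14987 and 15871 normalised counts with riluzole against 19149 and 20180 in the controls (log2 fold change -0.35 ± 0.04, SE). Ppp1r15a, whose product GADD34 restores translation after stress, fell to 0.633 of the control level, Nupr1 to 0.632, Chac1, a glutathione-degrading enzyme gene, to 0.629 and Asns, the asparagine synthetase gene, to 0.762, while Ddit3, which encodes CHOP, fell to 0.818. Exons of Ddit3 overlap those of another entry on the same strand and of a gene on the other strand. The log2 fold changes of the 8 genes ran from -0.67 to -0.28, and that of Gadd45a was -0.61. Whether the change of Gadd45a is tied to these genes was not tested.

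**Figure D5:**
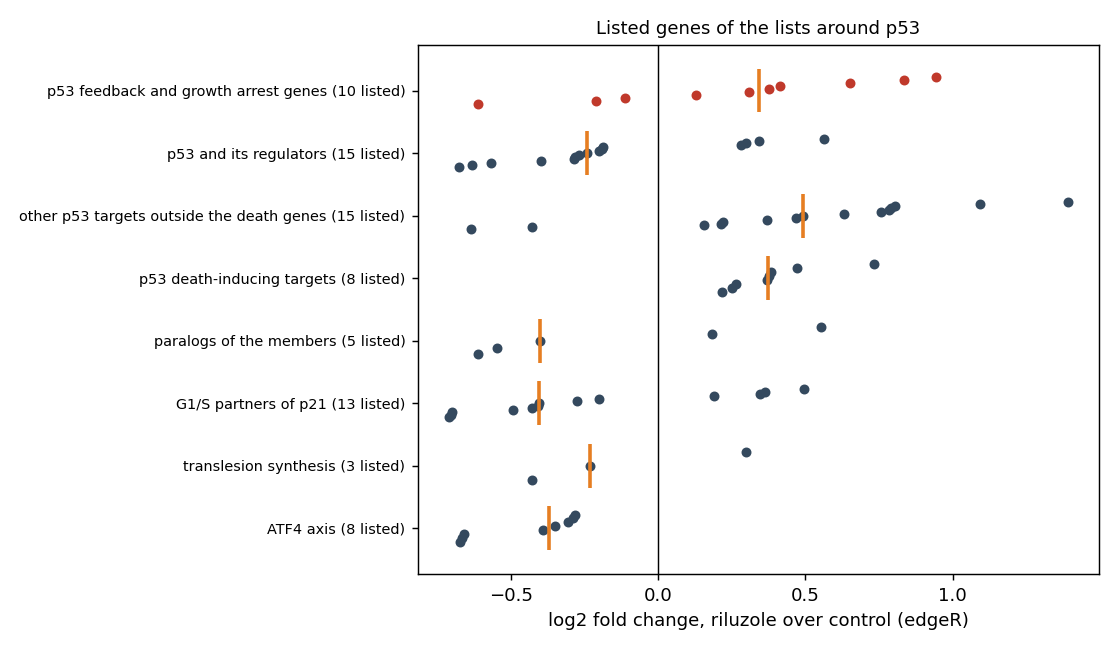
Log2 fold change, riluzole over control (x axis), of every listed gene in the 10-gene group (red) and in 7 gene lists around p53; orange bars are list medians, and vertical spread within a row only separates points. Death genes lie wholly above 0 and genes of the ATF4 axis wholly below it, and the 10 genes span both sides.

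Among the 29 promoter windows of the whole reference with a 20-letter p53 site, 4 belonged to genes listed as higher with riluzole and 1 to a gene listed as lower. Of all 32851 windows, 1839 belonged to genes listed as higher and 2465 to genes listed as lower; whether site and direction are tied was not tested. The higher genes were Cdkn1a and Ccng1, shown above, with Rps27l and Gtse1, which were in the lists of p53 regulators and of further p53 targets; the lower gene was Mthfd1, an enzyme gene of folate metabolism named after its window was seen. Gtse1, which encodes a microtubule protein that restrains p53, had 2150 and 2221 normalised counts with riluzole against 2062 and 1874 in the controls, a log2 fold change of 0.15 that missed the threshold in the authors' deposited table (adjusted p = 0.143). Mthfd1 had 2210 and 2304 normalised counts with riluzole against 2733 and 2625 in the controls, a log2 fold change of -0.25 ± 0.05 (SE; edgeR quasi-likelihood adjusted p = 8.73e-05). The sites on GRCm38.p6 are given for comparison with those of Cdkn1a and Ccng1, 5′ to 3′ and all in capitals.
Rps27l, chr9:66946296-66946315, + strand: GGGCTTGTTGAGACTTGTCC
Gtse1, chr15:85859945-85859964, + strand: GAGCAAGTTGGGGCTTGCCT
Mthfd1, chr12:76255090-76255109, + strand: AAACTTGCTCAGACAGGCCC
The remaining 24 windows belonged to genes outside the table.

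None of the 10 genes has a near-identical copy by the search used. In the GRCm38 annotation, exons of Cdkn1a, Gadd45a and Plk3 share 273, 337 and 84 bases with a gene on the other strand, and the sources used here do not say whether counting used strand, so a part of their reads could be assigned to either gene.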

How the data were processed

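PolyA RNA of CT26 cells was sequenced in 4 libraries. Per the submitters' processing notes, the build was mm39 and the tools included HISAT2, featureCounts 1.5.0-p3, edgeR and DESeq2, with no settings stated. The authors deposited raw counts per gene, normalised counts (a signal scaled by library; the size factors they imply were 1.03 and 0.904 for riluzole and 0.911 and 1.19 for control), FPKM values, and, from their own test, p-values, adjusted p and log2 fold changes, per the file headers; the gene length behind FPKM, another deposited column, was used as given. Which tool gave the p-values is not stated in those notes. Both tables were joined into 4295 genes. Library totals implied by the deposited FPKM were 18174251 and 15932205 counts for riluzole and 15803444 and 20562946 for control. The deposited p-values and adjusted p imply 12601 tested genes, within 0.5 for 3648 of 4218 genes with an adjusted p below 1.

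Counts were tested with edgeR 4.0.16 (R 4.3.3, quasi-likelihood F test, no covariate, no filter, the authors' size factors), with Benjamini-Hochberg adjustment over 12601 genes and a threshold of 0.05. Its median trended dispersion, 0.001, was fitted on genes chosen for low p; the deposited p-values imply 0.00301, so the edgeR p-values may be too small, and those of the authors' deposited table are given beside calls that differ. Alternatives were other scalings, DESeq2 1.42.0, count filters, a replicate block and leaving out each library. Replicates of a group differed beyond counting noise (chi-square per gene 3.33 for riluzole and 3.62 for control), so none were merged. Members and gene lists were chosen with earlier results of these data known. Genes named from the other lists are the up to 4 with the smallest edgeR adjusted p, up to 3 against their list's majority and 12 fixed names; Mthfd1, Gtse1 and the marker genes lie outside that rule. Copies were sought with BLAST+ 2.17.0 (at least 95% identity over 200 bases) and exon overlaps of at least 50 bases with bedtools 2.31.1 on GRCm38, GENCODE M21; promoter windows are from RefSeq. Decamers were searched without mismatch. Scripts used Python 3.11.15.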

Additional observations from a re-analysis of the deposited data

How the results depend on the processing

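Under 13 alternatives to the edgeR test, Mdm2, Ccng1, Trp53inp1, Phlda3, Cdkn1a, Gadd45a and Polk kept their direction and an adjusted p below 0.05. Of the 10 genes, 7 were higher and 3 lower in the test as reported. With TMM factors over the listed genes 1 was called lower (Plk2 -0.016 and Plk3 -0.11 on the log2 scale). Over all listed genes 1656 were lower with these factors. Under DESeq2 scaling on the listed genes 1 was called lower as well (Plk3 -0.045, and Plk2 reversed at 0.051). Over all listed genes 1042 were lower under that scaling, against 2501 in the test as reported. The share of higher calls was 41.5% as reported, 51.8% with TMM and 63.1% under DESeq2 scaling. Both centre on genes chosen for differing, most of them lower. Zmat3 was not called with library totals implied by FPKM (log2 fold change 0.10), in the DESeq2 test (0.13, adjusted p = 0.0754) or in the authors' deposited table (0.13). Leaving out each library in turn gave 0.10 to 0.16 for Zmat3 and -0.15 to -0.080 for Plk2, the calls being lost in 3 of 4 cases for each. The cause of these losses was not tested. The deviations of libraries with the same replicate number had a correlation of 0.0979 over 3912 genes. With 2 pairs this cannot decide whether replicates were paired. With a replicate block 7 of the 10 genes were higher and 3 lower, and over all listed genes 1763 were higher and 2510 lower. Count filters and adjustment over the listed genes only ended no call among the 10. With 485 to 11139 counts per library for each gene, counting error is small, and 2 libraries per group limit what the spread can show.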
